A study of Mus musculus with 40 samples.

Results

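Mouse oocytes that matured in vitro without their cumulus cells were compared with mouse oocytes that matured in vitro inside the cumulus-oocyte complex, in unfractionated total RNA. The comparison rests on 8 of the 40 libraries of the series, 4 of in vitro matured denuded oocytes (IVM) and 4 of in vitro matured cumulus-oocyte complexes (COC), and on all 11152 genes that the deposited table for these 8 libraries lists. A gene is listed only where it reached 0.2 RPKM in each of the 8 libraries, RPKM being reads per unit of gene length and of sequencing depth. The wider study set in vitro against in vivo maturation in oocytes and zygotes, in total RNA and in RNA from polysome fractions. In vivo matured oocytes (IVO, 4 libraries of total RNA) are given beside the genes that passed and some of the others. The labels describe all these cells as ovarian germ cells from mouse. They name no strain, age, medium or culture time, and do not say whether COC oocytes were freed of cumulus cells before lysis. Whether replicates are separate animals or separate cultures is not stated either, so the p-values speak of the spread among these samples, part of which may be technical.

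Cumulus cells are the granulosa cells that stay around the oocyte and reach it with thin projections that cross the zona pellucida and end in gap junctions. Through these contacts the oocyte receives pyruvate, some amino acids, products of cholesterol synthesis and cyclic GMP, which helps to keep cyclic AMP high and meiosis arrested until the ovulatory signal. A fully grown oocyte transcribes very little during maturation. Its messenger RNAs were stored during growth and are then translated, silenced or degraded, largely through their poly(A) tails and 3′ ends. A level of RNA in a maturing oocyte therefore reads storage and decay more than new synthesis.

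In total RNA 5 genes passed the test, 4 higher in IVM oocytes and 1 higher in COC oocytes. C130074G19Rik, Uqcrc1, Lcp1 and Zfp707 were higher without cumulus cells, and Flna was higher with them. The 4 higher genes are 0.0359% of all genes tested and the 1 gene higher in COC oocytes is 0.00897%, together 0.0448%. Fold changes below are IVM minus COC, in log2(RPKM + 1) and with a standard error, n = 4 against 4, and adjusted p-values are from limma with Benjamini-Hochberg adjustment over all genes. Adding 1 shrinks the differences of genes at low RPKM, so the ratio of mean RPKM is given beside it for the genes that passed.

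The ends of these 5 messages are shown because the 3′ end carries the signals by which stored oocyte RNA is given or loses its tail. Each line is 30 bases, 5′ to 3′ on the sense strand, holding the hexamer AATAAA near the end of the gene's longest protein-coding transcript in GENCODE M21, an annotation of GRCm38. Capitals mark the hexamer, a polyadenylation signal by its letters. In Zfp707 it is the last 6 bases of the annotated transcript, so it is not shown to be the signal of that end.
C130074G19Rik: gcctttgctgtaAATAAAagttccagcttg
Uqcrc1: ccagttacccccAATAAAgccctattgaga
Lcp1: aaaatctttccgAATAAAatgtcccccaat
Zfp707: tgtgtgcgtgcacacacaagacatAATAAA
Flna: ccagccaagaggAATAAAattttgcttccg
The genes lie on chromosomes 1, 9, 14, 15 and X in that order. All 5 hold AATAAA in the last 50 bases, as did 63.4% of the 11111 transcripts of listed genes that could be scanned. None holds TTTTAT or TTTTAAT, 2 forms of the cytoplasmic polyadenylation element, in its last 150 bases, where 24.7% of those transcripts held one. Only the sense strand was read, and TTTTAAT can share letters with AATAAA. The matches are of letters in 1 annotated transcript per gene, and which 3′ ends the oocyte uses was not measured.

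C130074G19Rik (ENSMUSG00000039349) had the smallest p. It is a clone-named gene to which no role is given here. It stood at 2.51, 2.79, 2.56 and 2.94 RPKM in IVM replicates 1 to 4 and at 0.834, 0.839, 0.607 and 0.962 RPKM in COC replicates 1 to 4. Every IVM library lay above every COC library, and the ratio of means was 3.33. The fold change was 1.03 ± 0.08 on the log2 scale (limma adjusted p = 0.000968). The recovered read numbers, 362 to 445 in IVM and 97 to 166 in COC libraries, put the gene well above the floor of the table. In IVO oocytes it stood at 0.426 ± 0.061 RPKM (SD, n = 4), from 0.342 to 0.482 RPKM, below both in vitro groups.

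Uqcrc1 (ENSMUSG00000025651) encodes a core subunit of respiratory complex III of the mitochondrial inner membrane. The 4 IVM libraries read 1.67, 1.75, 1.64 and 1.63 RPKM and the 4 COC libraries 0.694, 0.786, 0.775 and 0.644 RPKM. The groups did not overlap, and the libraries within each group were close together. The ratio of means was 2.3, with a fold change of 0.63 ± 0.05 on the log2 scale (limma adjusted p = 0.00195). IVO oocytes stood at 0.726 ± 0.117 RPKM beside 0.725 ± 0.0676 RPKM in COC oocytes (SD, n = 4 each).

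The other genes of complex III did not pass. Of 16 genes in the list of complex III subunits and assembly factors 14 were listed, 1 was called, and their median fold change was 0.11 beside 0.01 for all genes, and 0.06 without COC replicate 1 and 0.04 without IVM replicate 2. Uqcr11, a small accessory subunit, ranged from 28.6 to 39.7 RPKM in IVM and from 25.9 to 30.1 RPKM in COC libraries. Cyc1, the cytochrome c1 subunit, ranged from 2.49 to 2.91 and from 2.07 to 2.84 RPKM. Both pairs of ranges overlapped. Of the 55 listed nuclear genes of the other respiratory complexes 0 were called, and their median was 0.07. It was 0.00 without IVM replicate 2, 0.03 without COC replicate 2, 0.04 without COC replicate 1 and 0.11 without COC replicate 3. An unadjusted p under 0.05 was reached by 2, both higher in IVM oocytes, a side on which 4.83% of all genes stood at that p. One was Ndufa11, a complex I subunit, at 18.4 ± 1.25 RPKM in IVM and 13.6 ± 1.08 RPKM in COC oocytes (fold change 0.41 ± 0.08, limma adjusted p = 0.131).

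Among the 13 mitochondrially encoded messages 0 were called, and the median was -0.01 with a range from -0.40 to 0.25 over the genes. Without IVM replicate 2 the median was -0.15. The 3 with an unadjusted p under 0.05 were mt-Nd3, mt-Nd6 and mt-Nd4l, subunits of complex I, all lower in IVM oocytes. At that p 0.816% of all genes were lower in IVM oocytes. mt-Nd3 stood at 57.9 ± 6.02 RPKM in IVM and 77.4 ± 14 RPKM in COC oocytes (limma adjusted p = 0.526), and its groups overlapped. IVM replicate 2 was the highest library of this list, 0.34 above the mean of the 8 libraries, while the other IVM libraries lay from -0.23 to -0.07.

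**Figure D1:**
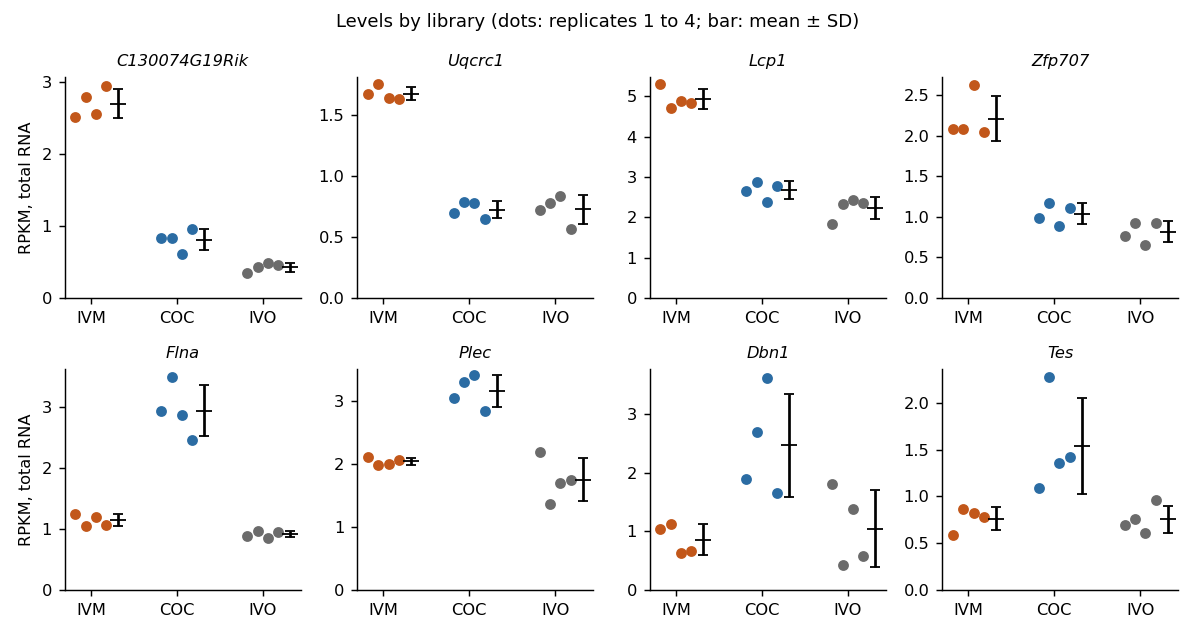
RPKM in total RNA (vertical axes, each starting at 0) of 8 genes in denuded (IVM), cumulus-enclosed (COC) and in vivo matured (IVO) oocytes; dots are replicates 1 to 4 and bars the mean ± SD. IVM dots lie above all COC dots in C130074G19Rik, Uqcrc1, Lcp1 and Zfp707, and below all COC dots in Flna, Plec, Dbn1 and Tes.

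Flna (ENSMUSG00000031328) was the 1 gene that passed in the other direction. It encodes filamin A, a large protein that cross-links actin filaments and ties them to membrane receptors. COC replicates 1 to 4 held 2.94, 3.50, 2.88 and 2.47 RPKM, against 1.25, 1.05, 1.20 and 1.07 RPKM in IVM replicates 1 to 4. All COC libraries lay above all IVM libraries. The ratio of means, COC over IVM, was 2.58, and the fold change was -0.88 ± 0.08 on the log2 scale (limma adjusted p = 0.00388). IVO oocytes, at 0.914 ± 0.0493 RPKM (SD, n = 4), were nearer to IVM than to COC oocytes. In the comparison of COC with IVO oocytes Flna differed by 1.04 ± 0.08 (limma adjusted p = 0.00323), and in that of IVM with IVO oocytes by 0.16 ± 0.06 (limma adjusted p = 0.322). These comparisons, which called 1 of 10981 (0.00911%) and 56 of 10996 genes (0.509%), share libraries with the direct one.

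Lcp1 (ENSMUSG00000021998) encodes L-plastin, which bundles actin filaments and is best known from leukocytes. It read 5.30, 4.71, 4.87 and 4.84 RPKM in IVM libraries and 2.65, 2.88, 2.38 and 2.78 RPKM in COC libraries. The groups did not overlap, with a ratio of means of 1.85 and a fold change of 0.69 ± 0.07 (limma adjusted p = 0.00582). In IVO oocytes it stood at 2.24 ± 0.265 RPKM (SD, n = 4), near the COC level. Non-coding genes of the annotation overlap Lcp1 on the opposite strand, and the sources used here do not give the strand setting of the counting.

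Flna and Lcp1 stand on the same list of actin crosslinkers and linkers, of which 38 of 46 genes were listed. It had 1 gene called in each direction, and of the 38 genes 5 had an unadjusted p under 0.05 and were higher in IVM and 5 were higher in COC oocytes. Over all genes these shares were 4.83% and 0.816%. The list was chosen with earlier results of these data known, so its counts do not test actin genes as a class. The list's median was 0.02, and its range, from -0.88 to 0.69, was wide on both sides. Besides Flna, the members lower in IVM oocytes at that unadjusted p were Plec, Dbn1, Tes and Ezr. Besides Lcp1, those higher in IVM oocytes were Cttn, Myo10, Myh10 and Myh9, among them the non-muscle myosin heavy chains.

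Plec encodes plectin, which links intermediate filaments to actin and to junctions. Its level was 2.12, 1.99, 2 and 2.06 RPKM in IVM libraries and 3.05, 3.31, 3.41 and 2.85 RPKM in COC libraries. The groups did not overlap, yet the gene did not pass over all genes (fold change -0.45 ± 0.07, limma adjusted p = 0.0732). Part of Plec overlaps Parp10 on the same strand in the annotation, so reads of the overlap could be split between them.

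Dbn1, the gene of the actin-binding protein drebrin, read 1.04, 1.12, 0.622 and 0.657 RPKM in IVM and 1.90, 2.70, 3.61 and 1.66 RPKM in COC libraries. The COC libraries all lay higher but differed from each other by more than those of Flna did (fold change -0.87 ± 0.17, limma adjusted p = 0.152). IVO oocytes spread from 0.421 to 1.81 RPKM, across the lower end of the COC range. Tes encodes testin, a protein of focal adhesions and cell contacts. It stood at 0.763 ± 0.124 RPKM in IVM, 1.54 ± 0.517 RPKM in COC and 0.756 ± 0.148 RPKM in IVO oocytes (SD, n = 4 each), without overlap of IVM and COC libraries (fold change -0.51 ± 0.12, limma adjusted p = 0.286).

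Flna, Plec, Dbn1 and Tes are also widely expressed in somatic cells, so markers of cumulus and granulosa cells were read in the same libraries. Of 35 such markers 7 were listed, and their summed level was 106 to 117 RPKM in IVM and 112 to 125 RPKM in COC libraries. Most of that sum was Serpine2, a protease inhibitor, at 85.2 ± 4.18 RPKM in IVM and 91.4 ± 5.88 RPKM in COC oocytes (SD, n = 4 each). The listed markers had a median of 0.01, and 0 had an unadjusted p under 0.05. The defining genes Amh, Fshr, Foxl2, Inha, Star, Gja1, Has2, Ptx3 and Lhcgr were not listed, so each was under 0.2 RPKM in at least 1 of the 8 libraries. A marker held by COC libraries alone would fall under that floor in IVM libraries, so the listed markers cannot show it.

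Of the unlisted cumulus markers only Grem1, which encodes the BMP antagonist gremlin, was read in COC libraries. The COC levels of the others were not seen. It is not listed in the direct table or in the table of IVM with IVO oocytes, but is listed in that of COC with IVO oocytes. There it stood at 0.913, 1.61, 0.846 and 1.86 RPKM in COC replicates 1 to 4 and at 0.539, 0.293, 0.237 and 0.317 RPKM in IVO replicates 1 to 4. All COC libraries lay above all IVO libraries, and at least 1 IVM library lay below 0.2 RPKM. Among the COC libraries replicates 2 and 4 were highest in Grem1 and also in Tes. Flna was highest in COC 2 and lowest in COC 4, and Plec and Dbn1 were highest in COC 3 and lowest in COC 4. The part of cumulus RNA in the level of Flna, Plec, Dbn1 and Tes was not tested, and in bulk samples fewer cells of a type and less RNA per cell cannot be told apart.

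For Lcp1 the leukocyte markers were read. Of 21 only Cd68, Laptm5, Plek and Vav1 were listed, with a summed level of 6.81 to 8.34 RPKM in IVM and 6.51 to 8.08 RPKM in COC libraries, ranges that overlap. Ptprc, which marks nearly all leukocytes, and Spi1 and Tyrobp were not listed. Endothelial, theca and blood markers were listed for 3 of 19 genes, at 14.6 to 15.8 RPKM and 13.3 to 15.3 RPKM. Of the oocyte markers 19 of 20 were listed, with a summed level of 8010 to 8900 RPKM in IVM and 7430 to 8010 RPKM in COC libraries. That sum was higher in IVM libraries, the lowest of which stood level with COC replicate 3 at 3 digits. Of these 19 genes 0 were called, and 7 had an unadjusted p under 0.05, all higher in IVM. Over all genes 4.83% stood on that side at that p. The markers Zp1, Zp2 and Zp3 are also on the list of egg coat genes.

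Zfp707 (ENSMUSG00000034429), a zinc finger gene, read 2.08, 2.08, 2.62 and 2.04 RPKM in IVM and 0.982, 1.17, 0.890 and 1.11 RPKM in COC libraries. The groups did not overlap, with a ratio of means of 2.13 and a fold change of 0.65 ± 0.08 (limma adjusted p = 0.0162). IVM replicate 3 was the highest library. The gene no longer passed without COC replicate 1, 3 or 4 or without IVM replicate 1 or 4, with limma adjusted p = 0.106, 0.0843, 0.0606, 0.0711 and 0.0566 in that order, while its fold change stayed between 0.59 and 0.68 without any 1 library. IVO oocytes stood at 0.817 ± 0.131 RPKM (SD, n = 4).

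**Figure D2:**
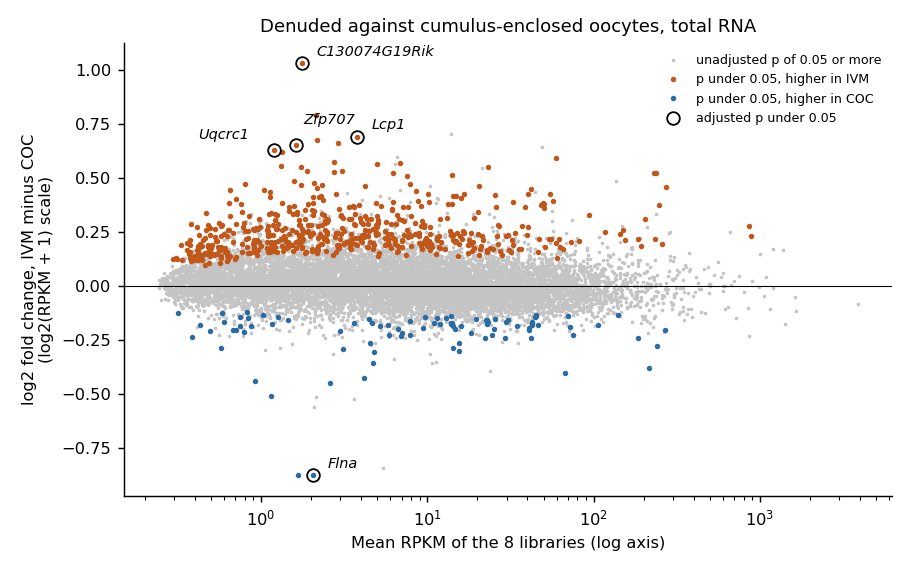
Fold change, IVM minus COC, on the log2(RPKM + 1) scale (vertical axis) against the mean RPKM of the 8 libraries (log axis) for 11152 genes; coloured dots have an unadjusted p under 0.05 and rings an adjusted p under 0.05. Coloured dots above 0 (539) outnumber those below 0 (91), and the 5 ringed genes lie at a mean under 5 RPKM.

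At an unadjusted p under 0.05, 539 genes (4.83%) were higher in IVM oocytes and 91 (0.816%) were higher in COC oocytes. These counts, 630 genes (5.65%) in all, include the genes that passed. Groups did not overlap for 396 genes (3.55%) higher in IVM and 118 genes (1.06%) higher in COC oocytes, 4.61% in all. Differences were small. The median over all genes was 0.01, the 1st and 99th percentiles were -0.19 and 0.34, and 35 genes lay more than 0.5 from 0. Of the 539 and 91 genes, 123 and 16 had a mean under 1 RPKM. With the authors' deposited p-values, adjusted here, 30 genes (0.269%) were higher in IVM and 4 (0.0359%) higher in COC oocytes, namely Flna, Plec, Dbn1 and Tes. All 34 of these had an unadjusted limma p under 0.05 and groups that did not overlap.

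Among the 12 genes of smallest p higher in IVM oocytes, those that did not pass included Rbmx2, Rbm5 and Gpkow. Rbmx2, a spliceosome component, stood at 2.90 ± 0.588 RPKM in IVM and 1.42 ± 0.18 RPKM in COC oocytes (limma adjusted p = 0.0732). IVM replicate 2 was its highest library at 3.77 RPKM, and without that library Rbmx2 passed (fold change 0.58, limma adjusted p = 0.0321). Rbm5, a regulator of splicing, stood at 5.06 ± 0.434 and 3.38 ± 0.168 RPKM, and Gpkow, a spliceosome-associated G-patch protein, at 2.25 ± 0.322 and 1.22 ± 0.233 RPKM (SD, n = 4 each; limma adjusted p = 0.0815 and 0.119). For each of the 3 the groups did not overlap.

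Impdh2, another of these 12 genes, encodes the enzyme that commits inosine monophosphate to guanine nucleotides, a pathway tied to cyclic GMP and meiotic arrest. It read 1.85, 1.54, 2.02 and 1.93 RPKM in IVM and 0.918, 0.679, 0.648 and 1.16 RPKM in COC libraries. The groups did not overlap (fold change 0.62 ± 0.10, limma adjusted p = 0.0732), and without COC replicate 4 the gene passed (0.70, limma adjusted p = 0.0433). Impdh2 overlaps Ndufaf3 on the opposite strand in the annotation.

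Mcl1 encodes an anti-apoptotic member of the BCL2 family that is needed for oocyte survival in mice. It read 2.38, 2.72, 2.45 and 2.39 RPKM in IVM and 1.62, 1.59, 1.51 and 1.74 RPKM in COC libraries, without overlap (fold change 0.41 ± 0.06, limma adjusted p = 0.0732). The rest of the family did not share its direction. Of 8 listed members 1 lay above 0 and 7 below, and the median was -0.07. Bax, a pore-forming pro-apoptotic member, stood at 5.96 ± 0.121 and 6.52 ± 0.265 RPKM, and Bcl2l10, the most abundant member, ranged from 680 to 1030 RPKM in IVM and from 730 to 1000 RPKM in COC libraries.

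Lemd2, of the inner nuclear membrane, stood at 0.862 ± 0.0624 RPKM in IVM and 0.425 ± 0.0773 RPKM in COC oocytes (SD, n = 4; limma adjusted p = 0.0667). With the GC content trend of every library removed it passed (limma adjusted p = 0.0457). The kinase gene Mink1 stood at 16.5 ± 0.838 and 12.1 ± 0.525 RPKM and the zinc finger gene Zfp715 at 2.19 ± 0.0881 and 1.5 ± 0.0804 RPKM (limma adjusted p = 0.0732 and 0.0962). Hsf2, a heat shock factor active in mouse oocytes, stood at 1.46 ± 0.233 and 0.813 ± 0.0686 RPKM (limma adjusted p = 0.104). None of these groups overlapped.

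The 12 genes of smallest p higher in COC oocytes included Flna, Plec, Dbn1 and Tes. Flna passed and the other 11 did not. Gmcl1, a germ cell gene, stood at 12.8 ± 0.655 RPKM in IVM and 15.8 ± 0.642 RPKM in COC oocytes (limma adjusted p = 0.209). Slc25a31, the ADP/ATP carrier of germ cells, stood at 14 ± 0.854 and 16.9 ± 0.359 RPKM, and Henmt1, which methylates piRNAs, at 13.7 ± 0.366 and 17.2 ± 2.28 RPKM (limma adjusted p = 0.254 and 0.434). The maternal gene Omt2b, with Prrg1 and Arfip1, differed by -0.24, -0.22 and -0.19. Gadd45b, a stress-response gene, ranged from 0.349 to 0.906 RPKM in IVM and from 0.872 to 1.42 RPKM in COC libraries, and its groups overlapped. The hepcidin gene Hamp rested on 5 to 6 reads in IVM and 9 to 14 reads in COC libraries, too few to place it.

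The named genes were set beside in vivo oocytes as a description, since they were chosen on the difference between IVM and COC oocytes. For all 13 of the called or smallest-p genes higher in IVM oocytes, the IVO mean lay nearer to the COC mean. Of the 12 genes higher in COC oocytes the IVO mean lay nearer to COC for 8 and nearer to IVM for 4, which were Flna, Plec, Dbn1 and Tes.

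Genes of the egg coat and of sperm binding stood higher in IVM oocytes as a group in value, with 0 of 8 listed genes called. Their median was 0.21, beside 0.01 for all genes, and 4 of the 8 had an unadjusted p under 0.05, all higher in IVM. At that p 4.83% of all genes were higher in IVM oocytes. Zp2, a zona pellucida protein that is cleaved after fertilization, read 272, 260, 258 and 295 RPKM in IVM libraries and 167, 201, 175 and 213 RPKM in COC libraries. These groups did not overlap (fold change 0.52 ± 0.09, limma adjusted p = 0.119), and IVO oocytes stood at 172 ± 16.5 RPKM.

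Zp3, the zona protein long described as the sperm receptor in mouse, stood at 316 ± 40.4 RPKM in IVM and 230 ± 25 RPKM in COC oocytes (limma adjusted p = 0.264), and IVO oocytes, at 280 ± 48.6 RPKM, lay between them. Astl, which encodes ovastacin, the protease that cleaves ZP2, stood at 127 ± 5.34 and 107 ± 5.7 RPKM, and Zp1 at 198 ± 4.59 and 170 ± 12.8 RPKM (limma adjusted p = 0.318 and 0.526). IVO oocytes, at 108 ± 11.6 RPKM for Astl and 158 ± 16.1 RPKM for Zp1, lay nearer to COC oocytes. The IVM and COC groups of the 3 genes did not overlap. Izumo1r, the gene of the sperm-fusion receptor JUNO, ranged from 60.1 to 71.4 RPKM in IVM and from 62.6 to 65.7 RPKM in COC oocytes. All 4 IVM libraries lay above the mean of the 8 for the list (0.08 to 0.13) and all 4 COC libraries below it (-0.20 to -0.04), and the median was 0.17 to 0.23 without any 1 library.

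The subcortical maternal complex and its NLRP relatives, oocyte proteins that early cleavage needs, were listed for 17 of 17 genes with 0 called and a median of 0.02. An unadjusted p under 0.05 was reached by 3, all higher in IVM, a side on which 4.83% of all genes stood at that p. Padi6 ranged from 932 to 979 RPKM in IVM and from 783 to 829 RPKM in COC libraries, and Nlrp5 from 237 to 361 and from 179 to 234 RPKM (limma adjusted p = 0.526 and 0.668). Oocyte-secreted factors, which act on cumulus cells, had 0 of 11 listed genes called and 0 at an unadjusted p under 0.05. Gdf9 ranged from 1430 to 1490 RPKM in IVM and from 1240 to 1350 RPKM in COC libraries, and Bmp15 from 269 to 377 and from 269 to 346 RPKM.

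Genes for the supply lines that cumulus cells provide also had medians near that of all genes, 0.01. Of 25 listed genes of glycolysis and pyruvate use, 29 of cholesterol synthesis and uptake, 13 amino acid transporters and 14 junction genes 0 were called. Their medians were 0.03, -0.03, -0.02 and 0.00, and 0, 0, 1 and 1 of them had an unadjusted p under 0.05. Of all genes 5.65% had such a p. The cholesterol enzyme gene Msmo1 stood at 7.83 ± 1.08 RPKM in IVM and 9.5 ± 1.52 RPKM in COC oocytes (limma adjusted p = 0.935). Cdh2, the adhesion molecule N-cadherin, stood at 4.02 ± 0.0917 and 4.31 ± 0.236 RPKM. The glutamate transporter gene Slc1a1 spread from 0.284 to 0.672 RPKM in IVM and from 0.241 to 0.290 RPKM in COC libraries.

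Genes that control meiosis had medians near that of all genes. Of 13 listed genes of the cyclic AMP pathway that holds arrest, 25 of cyclin B, CDK1 and the MOS pathway and 48 of the spindle, kinetochore and checkpoint, 0 were called, with medians of 0.03, -0.02 and 0.03. At an unadjusted p under 0.05 there were 1, 1 and 6 genes higher in IVM oocytes and 0, 1 and 0 higher in COC oocytes. Over all genes 4.83% were higher in IVM and 0.816% higher in COC oocytes at that p. Pde3a, the phosphodiesterase that ends arrest, stood at 35.6 ± 1.77 RPKM in IVM and 34.7 ± 2.06 RPKM in COC oocytes. Ccnb1, the regulatory subunit of the maturation-promoting kinase, ranged from 204 to 229 and from 226 to 247 RPKM. Mos, the activator of the MAPK pathway, ranged from 123 to 162 and from 141 to 162 RPKM.

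Within the spindle list Ran and Rangap1, a GTPase and its activating protein that guide spindle assembly around chromatin, had the smallest p. Rangap1 read 2.89, 5.92, 2.87 and 3.61 RPKM in IVM and 1.55, 2.58, 1.73 and 2.04 RPKM in COC libraries. Replicate 2 of each group was its highest library, and the groups did not overlap (fold change 0.66 ± 0.18, limma adjusted p = 0.388). Ran ranged from 14.2 to 21.6 RPKM in IVM and from 10.2 to 12.5 RPKM in COC libraries (limma adjusted p = 0.264).

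Among genes of maternal mRNA storage and deadenylation 44 of 45 were listed, 0 were called and the median was 0.01. An unadjusted p under 0.05 was reached by 2 in each direction. Over all genes 4.83% were higher in IVM and 0.816% higher in COC oocytes at that p. Btg4, the adaptor that brings the deadenylase to maternal messages, stood at 621 ± 47.5 RPKM in IVM and 663 ± 47.4 RPKM in COC oocytes. The deadenylase genes Cnot7 and Cnot8 differed by -0.22 ± 0.07 and -0.24 ± 0.10, without overlap of the groups. Ythdf2, a reader of methylated RNA, differed by 0.19 ± 0.06 (limma adjusted p = 0.526, 0.823 and 0.526 for the 3). Of 23 listed genes of reprogramming and genome activation 0 were called and 1 had an unadjusted p under 0.05, with a median of -0.02. Kdm1b, a histone demethylase needed for maternal imprints, read 57.0, 50.7, 54.3 and 58.2 RPKM in IVM and 43.7, 38.4, 41.1 and 45.4 RPKM in COC libraries, without overlap (0.38 ± 0.07, limma adjusted p = 0.152).

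**Figure D3:**
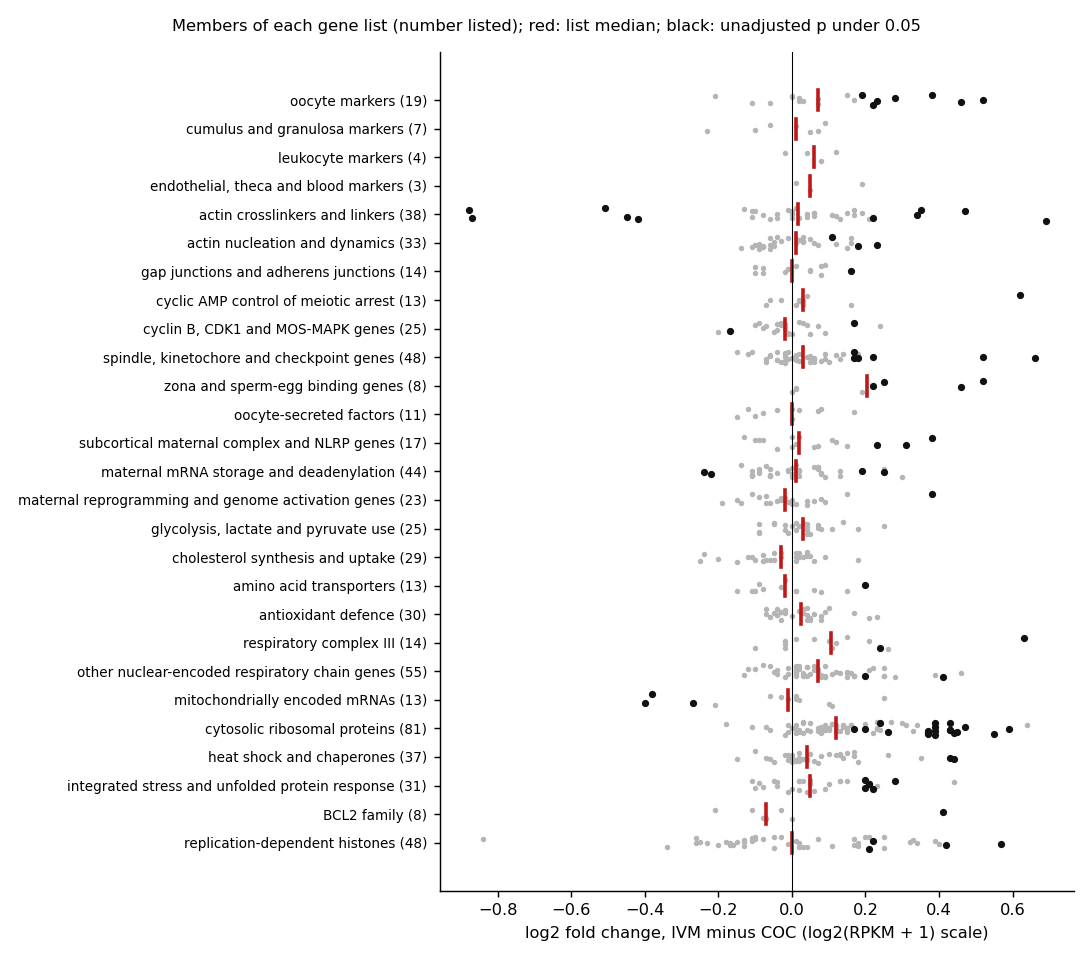
Fold change, IVM minus COC, on the log2(RPKM + 1) scale (horizontal axis) of the listed members of 27 gene lists (rows, with the number listed); each dot is a gene, black where its unadjusted p was under 0.05, and red bars are list medians. Most medians lie near 0, zona genes lie at 0.21 and ribosomal proteins at 0.12, and the actin crosslinkers spread to both sides.

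Cytosolic ribosomal protein genes lay slightly higher in IVM oocytes, with 0 of 81 listed genes called. Of these, 74 lay above 0 and 7 below, beside 6349 above and 4803 below among the 11152 genes tested. An unadjusted p under 0.05 was reached by 19, each of them higher in IVM. Among the 11152 genes 4.83% stood on that side at that p. The list's median was 0.12, beside 0.01 for the 11152 genes. It was 0.06 without IVM replicate 2 and 0.19 without COC replicate 3. Rpl6 stood at 48.5 ± 5.49 RPKM in IVM and 35.3 ± 4.57 RPKM in COC oocytes (SD, n = 4 each), without overlap of the groups (limma adjusted p = 0.243), and it stood at 46.1 ± 3.48 RPKM in IVO oocytes. Many of these genes have processed pseudogenes that can take part of their reads. The list stood 0.33 above the mean of the 8 libraries in IVM replicate 2 and 0.09 above it in COC replicate 3, from -0.01 to 0.02 in the other IVM and from -0.22 to -0.05 in the other COC libraries. Without those 2 libraries 34 genes had an unadjusted p under 0.05 and were higher in IVM and 1 was higher in COC oocytes.

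IVM replicate 2 and COC replicate 3 were also the libraries that stood apart in a principal component analysis of all genes. The first component held 49.8% of the variance and placed them at 24.7 and 11.7. It placed the other 6 libraries between -8.66 and -3.39, so it did not separate the groups. The second component, with 13.6% of the variance, did separate them. On it COC libraries lay from -0.0732 to 10.2 and IVM libraries from -6.87 to -3.63. Without IVM replicate 2 the numbers of genes at an unadjusted p under 0.05 were 752 higher in IVM and 167 higher in COC oocytes, without COC replicate 3 they were 497 and 111, and without both 769 and 257. Spearman correlations between libraries ran from 0.983 to 0.997 across groups and from 0.985 to 0.996 within IVM. Read depth was 46.63 to 50.97 M reads in IVM and 52.68 to 63.22 M reads in COC libraries. Every COC library was thus deeper than every IVM library, and the part of depth in the differences was not tested.

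**Figure D4:**
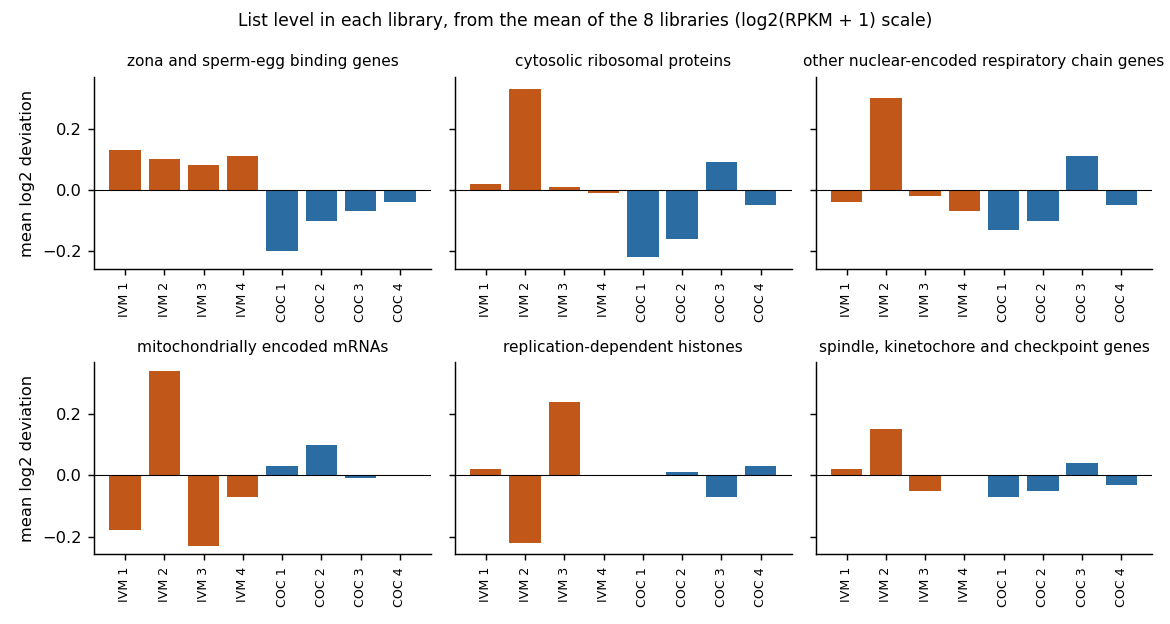
Mean deviation of a list's genes from the mean of the 8 libraries, on the log2(RPKM + 1) scale (vertical axes), in IVM (orange) and COC (blue) replicates 1 to 4 for 6 gene lists. Zona genes lie above 0 in the 4 IVM and below 0 in the 4 COC libraries, while ribosomal protein and respiratory chain genes are highest in IVM replicate 2, at 0.33 and 0.30, and next in COC replicate 3.

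No gene of the stress lists passed the test. Of 37 listed heat shock and chaperone genes 0 were called, 2 had an unadjusted p under 0.05 and the median was 0.04. Hsph1, a chaperone of the HSP110 family, stood at 62.5 ± 4.24 RPKM in IVM and 46.2 ± 3.52 RPKM in COC oocytes without overlap (limma adjusted p = 0.119). Of 31 listed genes of the integrated stress and unfolded protein responses 0 were called and 6 had an unadjusted p under 0.05, all higher in IVM. At that p 4.83% of all genes were higher in IVM and 0.816% higher in COC oocytes. Hspa5, the chaperone of the endoplasmic reticulum, stood at 44.2 ± 3.41 and 36.4 ± 3.03 RPKM (limma adjusted p = 0.434). Of 30 listed antioxidant genes 0 were called and 0 had an unadjusted p under 0.05, and Nfe2l2, their main transcription factor, stood at 2.36 ± 0.3 and 1.99 ± 0.309 RPKM.

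Replication-dependent histone genes, whose messages lack a poly(A) tail in dividing cells, were listed for 48 of 65 genes. Of these 0 were called, 24 lay above 0 and 24 below, and the range was from -0.84 to 0.57. An unadjusted p under 0.05 was reached by 4, all higher in IVM, a side on which 4.83% of all genes stood at that p. H2ac24 stood at 8.36 ± 1.62 RPKM in IVM and 5.29 ± 0.964 RPKM in COC oocytes (limma adjusted p = 0.280). The copies are close in sequence, so reads may be split between them. Among 33 listed genes of actin nucleation and dynamics 0 were called, with a median of 0.01, and 3 had an unadjusted p under 0.05, all higher in IVM.

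The same contrast in polysomal RNA called 0 of 5018 genes by limma, with 223 (4.44%) at an unadjusted p under 0.05. Of the 5 genes that passed in total RNA, Zfp707 alone is listed there. It read 50, 0.634, 11.5 and 10.3 RPKM in IVM and 1.75, 2.91, 7.12 and 3.62 RPKM in COC polysomal libraries. The groups overlapped (1.22 ± 0.82, limma adjusted p = 0.878). The highest value is that of polysomal IVM replicate 1, a library whose column the authors marked as excluded, and without it the fold change was 0.45 ± 0.63 (limma adjusted p = 0.993). Without polysomal IVM replicate 2, the lowest library, it was 2.11 ± 0.57 (limma adjusted p = 0.6). A test of whether the difference between IVM and COC oocytes differed between fractions called 0 of 5013 genes, with 266 (5.31%) at an unadjusted p under 0.05.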

How the data were processed

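The authors deposited RPKM values per gene and library, with their own log2 fold change and p-value per gene, per the file headers. They also hold the authors' signed fold change, a score not used here. The submitters' processing notes name DRAGEN and GRCm39. Libraries were made with a SMARTer Stranded pico-input kit, per the labels' protocols. The sources used here give no statistical test, annotation or strand setting of the authors. Each limma 3.58.1 fit (R 4.3.3) took log2(RPKM + 1), a trend of variance on level, the 8 libraries of 1 table and no covariate. Genes were called at an adjusted p under 0.05. Fits were tested on simulated data. Depth was recovered from the steps between RPKM values with exon lengths of GENCODE M21, which is of another build and gave no coordinates. Of low values, 45.4% to 46.7% per library came out whole within 0.05 reads; the other genes' lengths differ between annotations. Named genes are those called, the 12 of smallest p in each direction (without clone-named genes), up to 4 of smallest p per list, and 8 always named. Bcl2l10, Izumo1r, Cttn, Myo10, Myh10, Myh9 and Ezr, and Grem1, were named after their values were seen, as was the fit without both IVM replicate 2 and COC replicate 3. The comparison, lists and tests were chosen with earlier results of these data known. An RPKM is relative to all reads of a library, so a change in total RNA per oocyte is not seen. Not all genes that the naming rule takes are reported here.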

Additional observations from a re-analysis of the deposited data

Results flagged for a closer look

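In groups of 4 libraries, 24 of 252 groups looked at (9.52%) held 1 library whose gap to the nearest other, over the range of the group, exceeded Dixon's 95% critical value. That value is set so that about 1 in 20 groups of normally distributed values exceed it. All values are RPKM in total RNA.

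IVM replicate 2 stood apart for 9 genes. It was high for Rbmx2 (3.77, others 2.54 to 2.69), Hsf2 (1.81, others 1.32 to 1.39), H2ac24 (10.8, others 7.4 to 7.69), Ndufa13 (13.2, others 7.16 to 8.01) and Pfkfb2 (1.09, others 0.851 to 0.867). It was low for Gmcl1 (11.8, others 13 to 13.1), Henmt1 (13.1, others 13.8 to 13.9), Cnot8 (30, others 40.9 to 41.9) and Map2k1 (39.2, others 58.8 to 59.2).

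IVM replicate 1 was high for Slc25a31 (15.3), Arpc1a (3.38), Gsr (2.41) and Ctnna1 (58.6). IVM replicate 3 was high for Zfp707 (2.62, others 2.04 to 2.08), Chac1 (1.01) and Keap1 (4.28).

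COC replicate 3 was low for Prkacb (1.18) and Ctnnb1 (68.9) and high for Uqcc2 (29.4) and Btg4 (734). COC replicate 1 was low for mt-Atp6 (547) and Obox2 (202), and COC replicate 4 was high for Patl2 (18.3) and Mos (162).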

How the results depend on the processing

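The count of 5 genes called in total RNA was 5 with a pseudocount of 0.1 or none, with median-of-ratios scaling, with a mean RPKM of at least 1, without the variance trend and without the trend on length, and 6 without the trend on GC content. It was 13 at an adjusted p under 0.10 and 34 with the authors' p-values. Leaving out 1 library gave 4 to 6, and leaving out IVM replicate 2 and COC replicate 3 together gave 4, without Zfp707 (limma adjusted p = 0.0735). A block on replicate number left 1 call, C130074G19Rik. With that block the limma adjusted p was 0.0616 for Uqcrc1, 0.0616 for Flna, 0.135 for Lcp1 and 0.238 for Zfp707. The deviations of same-numbered libraries correlated at 0.18, -0.0342, -0.486 and 0.471. These values cannot decide whether the numbers pair the samples, since IVM replicate 2 and COC replicate 3 stood apart, and the labels do not say. The polysomal count was 0 throughout, and that of the interaction 0 to 1 without 1 library, Taco1 being called without polysomal IVM replicate 1, which the authors marked as excluded, and Mgst3 without polysomal IVM replicate 2.

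Directions turned for genes near 0 that were not called. Pecam1 (0.01) was at -0.01 with median-of-ratios scaling and in the authors' deposited table, and Dppa3 (0.00) at -0.02 in both and without the length trend. Leaving out 1 library gave -0.09 to 0.03 for Plek, -0.03 to 0.11 for Kdr, -0.03 to 0.03 for Pecam1, -0.13 to 0.03 for Prkar2a, -0.08 to 0.06 for Mos, -0.01 to 0.17 for Bmp15 and -0.07 to 0.07 for Dppa3. Without both libraries Plek was at 0.01, Kdr at -0.03, Pecam1 at -0.01, Mos at 0.04, and Pde3a and Dppa3 at -0.00. The cause was not tested. A gene under 0.2 RPKM in any of the 8 libraries was not seen, and genes at a few reads, such as Hamp, are limited by depth.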

Other observations

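Genes below the floor of the direct table were read from the tables of each in vitro group with IVO oocytes. Of these, 44 genes are listed with COC and IVO oocytes but not with IVM oocytes, and 59 the other way round. Only 4 of the 44 and 1 of the 59 were above 0.5 RPKM in all 4 libraries of the in vitro group, so most lie near the floor. Grem1 was among the 4. The histone genes H2ac4 and H2bc13 were not among these genes, with lowest libraries of 0.364 RPKM in COC and 0.412 RPKM in IVM oocytes. H2ac4 stood at 0.773 ± 0.394 RPKM in COC and 0.555 ± 0.12 RPKM in IVO oocytes. H2bc13 stood at 0.885 ± 0.355 RPKM in IVM and 0.417 ± 0.0895 RPKM in IVO oocytes. Hmox1, the heme oxygenase of the oxidative stress response, stood at 0.381 ± 0.141 RPKM in IVM and 0.352 ± 0.0603 RPKM in IVO oocytes and is not listed with COC oocytes. The transporter genes Slc7a8, at 0.297 ± 0.0322 RPKM in COC oocytes, and Slc7a9 were each listed on 1 side. All were picked with their values in view, and differences between IVM and COC oocytes were not tested for them.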
